A study of Mus musculus with 11 samples.

Results

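The early response of mouse kidney cells to ureteral obstruction was described by comparing 4 libraries prepared 3 days after unilateral ureteral obstruction (UUO) with 3 control libraries, out of 11 libraries in the series. Both groups came from C57BL/6 mice and were processed alike: the kidney was digested, the cells were enriched in DMEM with serum, and RNA was made into stranded Illumina libraries. The labels call the cells primary kidney fibroblasts and give no age, sex or transgene. They do not say whether each library came from its own animal, so p-values measure the spread between these libraries, which may be technical in part. A further 4 libraries, from 7 days of UUO, entered the fit and are quoted where they differ from day 3. The members of the comparison were the 13428 genes, of 13985 in the deposited table, whose FPKM averaged 0.5 or more across the 11 libraries. FPKM corrects the number of fragments for the length of the transcript and for how many fragments a library had.

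UUO closes one ureter, so that urine backs up into the kidney. It is a standard surgical model of renal fibrosis. As background, tubule cells stretch, lose their transport and mitochondrial programme and may divide or die. Monocytes enter from the blood and become macrophages, and fibroblasts and pericytes begin to deposit matrix.

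The preparations held far more than fibroblast transcripts. Markers of fibroblasts and pericytes summed to 236 to 269 FPKM in the control libraries and 938 to 1530 FPKM at day 3. Those of the proximal tubule summed to 15100 to 18300 FPKM in control and 1280 to 2420 FPKM at day 3. The most abundant gene of that list alone gave 9520 to 12000 FPKM in control and 608 to 1090 FPKM at day 3. Of 23 fibroblast and pericyte markers measured, 16 were called higher, 1 lower and 6 not called. Their log2 fold changes ran from -1.0 to 4.33, and the list pools both cell types, so 1 gene does not stand for all. Pdgfra, the platelet-derived growth factor receptor of resident fibroblasts, stood at 0.66 to 0.697 FPKM in control and 3.24 to 5.73 FPKM at day 3. The macrophage and monocyte list rose from 795 to 1210 FPKM in control to 5020 to 8210 FPKM at day 3, with 22 of 23 entries called higher. Itgam enters it under 2 gene identifiers. Red blood cell markers fell from 2390 to 6430 FPKM to 62 to 389 FPKM, and all 7 tested members were called lower. In such mixed preparations, fewer cells of a type and less RNA per cell cannot be told apart, which holds for every gene below.

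**Figure D1:**
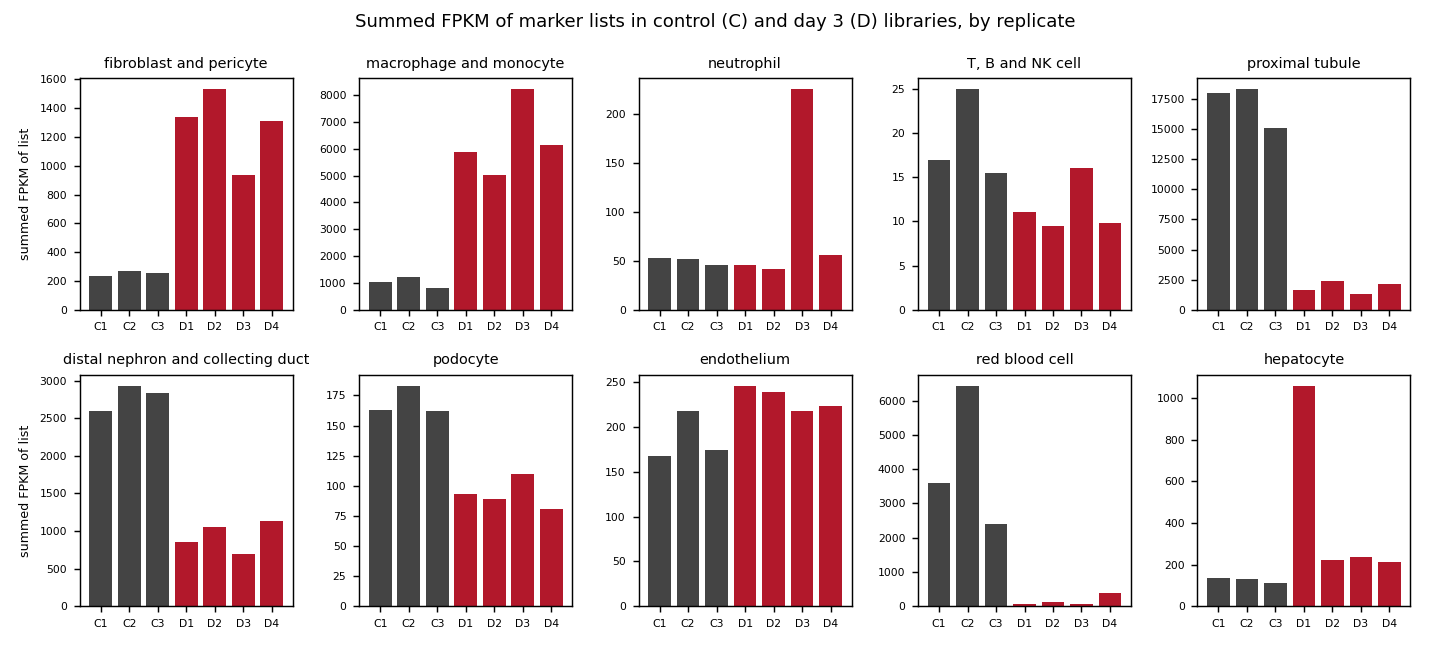
Summed FPKM of 10 marker lists (linear y axes that start at 0, one panel per list) in the 3 control libraries (C, grey) and the 4 day 3 libraries (D, red), each bar 1 library. Day 3 replicate 1 stands alone in the hepatocyte list at 1060 FPKM and day 3 replicate 3 in the neutrophil list at 225 FPKM.

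Day 3 replicates 1 and 3 stood apart. Replicate 1 carried transcripts typical of liver. Its hepatocyte markers summed to 1060 FPKM, against 212 to 238 FPKM in the other day 3 libraries and 113 to 134 FPKM in control. In those other day 3 libraries, much of the sum came from Trf (60 to 101 FPKM) and Fgg (40 to 51.8 FPKM). Both were called higher at day 3, so the sums do not compare liver transcripts between the groups. Alb, which encodes serum albumin, was at 261 FPKM in replicate 1 and at 1.46, 0.585 and 1.23 FPKM in day 3 replicates 2 to 4. The plasma protein genes Apoa1 (47.5 FPKM) and Ahsg (31.2 FPKM) and the liver fatty acid-binding protein gene Fabp1 (52.1 FPKM) behaved alike, as did the urinary pheromone carrier Mup20, at 69.8 FPKM and listed at 0 in every other library. Altogether 26 tested genes were at least 10 FPKM and at least 10 times any other library there, and none of them was called. Without replicate 1, Alb was called lower (-0.85). Replicate 3 had the highest macrophage sum of the day 3 libraries (8210 FPKM, against 5020 to 6140 FPKM), the lowest fibroblast and pericyte sum (938 FPKM, against 1310 to 1530 FPKM) and the lowest distal nephron sum (691 FPKM, against 852 to 1130 FPKM). It also carried more neutrophil transcripts. S100a8, a calprotectin subunit, stood at 53.2 FPKM there, at 3.19 to 7.61 FPKM in the other day 3 libraries and at 8.6 to 13.2 FPKM in control. S100a9, its partner, stood at 87.8 FPKM there, at 4.42 to 9.32 FPKM in the others and at 19.3 to 23.3 FPKM in control. Without replicate 3 both were called lower, S100a8 at -0.94 and S100a9 at -1.65. They do not stand for the whole neutrophil list. With all libraries, 5 of its 11 tested markers were called higher, 1 lower and 5 not called, with log2 fold changes from -1.71 to 2.31. Of 8 tested T, B and NK cell markers 6 were lower and 2 higher, Cd4 (1.47) and Cd79b (0.78), and their sum was highest of the day 3 libraries in replicate 3 (16 FPKM, against 9.45 to 11 FPKM). Gzma, a protease of cytotoxic lymphocytes, was at 3.4 to 6.09 FPKM in control and at most 0.0948 FPKM at day 3.

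At day 3, 8773 of the 13428 genes (65.3%) were called at an adjusted p under 0.05 in limma, 5957 higher (44.4%) and 2816 lower (21.0%). A change of at least 2-fold was reached by 3483 of them (25.9%), 2340 higher (17.4%) and 1143 lower (8.51%). The values of both groups did not overlap in 8687 genes (64.7%). With changes this broad, each family below is to be read against these shares and against the median log2 fold change of all genes, 0.26. The 13 protein genes of the mitochondrial genome took 25.4% to 35.9% of the summed FPKM in control and 6.06% to 7.29% at day 3. The split of calls into higher and lower depended on scaling. Centring on the median gave 3743 genes higher and 4701 lower, quantile normalization 4146 and 4358, rescaling to TPM (an equal total per library) 8246 and 1700, and an equal total without those mitochondrial genes 5887 and 2853. The median gene moved by -0.07, -0.01, 0.70 and 0.31 in these 4 cases. Called in one direction under all 5 scalings were 5425 genes (40.4%), 3730 higher (27.8%) and 1695 lower (12.6%). Day 7 libraries differed from day 3 in 2114 genes (15.7%), 990 higher (7.37%) and 1124 lower (8.37%) at day 7. Where a family's direction rests on the scaling, the sentence that describes it says so.

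**Figure D2:**
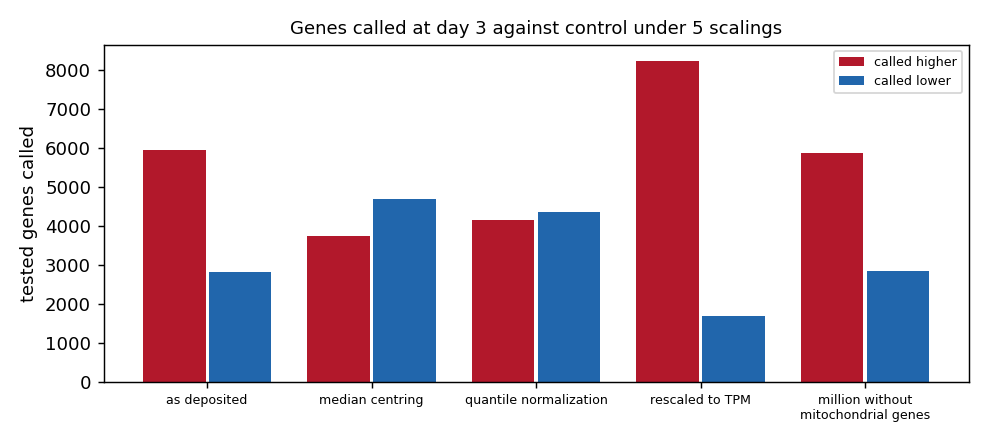
Number of genes called higher (red) and lower (blue) at day 3 against control among 13428 tested genes, with the FPKM as deposited and after 4 other scalings; the y axis is linear and starts at 0. Higher calls range from 3743 after median centring to 8246 after rescaling to TPM.

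Cfp and Fgg were among the largest increases, and Egf, Acsm3, Nccrp1 and Slco1a1 among the largest decreases. Cfp, which encodes properdin, the stabiliser of the alternative complement convertase, stood at 3.54, 5.78 and 3.77 FPKM in control and at 107, 97.8, 130 and 123 FPKM at day 3. Its log2 fold change was 4.44 (SE 0.18, limma adjusted p = 1.03e-08). Fgg, the gamma chain of fibrinogen, was at 1.55, 1.02 and 1.51 FPKM in control and 42, 51.8, 44.2 and 40 FPKM at day 3 (4.27, SE 0.16, adjusted p = 6.79e-09). Although Fgg is also a hepatocyte gene, its value in the library with liver transcripts lay inside the range of the other day 3 libraries.

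Egf, the growth factor made by the distal nephron, fell most of the members of the signalling families examined, from 134, 114 and 206 FPKM in control to 5.22, 7.23, 3.86 and 4.78 FPKM at day 3 (log2 fold change -4.58, SE 0.27, adjusted p = 6.89e-08). Acsm3, a medium-chain acyl-CoA synthetase, fell from 59.2 ± 7.1 (SD, n = 3) to 1.63 ± 0.299 FPKM (n = 4). Nccrp1, an F-box-related protein gene, stood at 74.2, 74.4 and 75.4 FPKM in control and at 2.65, 2.86, 1.42 and 2.86 FPKM at day 3. Slco1a1, an organic anion carrier, fell from 34.9 ± 7.44 to 0.928 ± 0.399 FPKM. Of 10 tested podocyte markers, 6 fell, 1 rose and 3 did not pass.

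**Figure D3:**
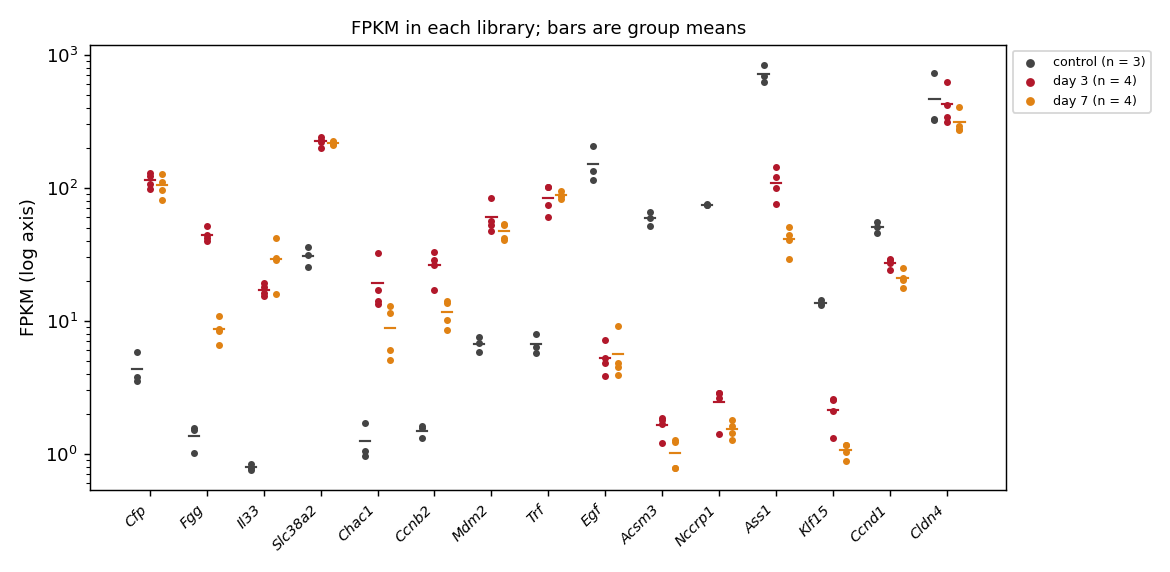
FPKM (log y axis) of 15 genes in each library of the control (grey), day 3 (red) and day 7 (orange) groups; points are libraries and short bars are group means. The first 8 genes are higher and the next 6 lower in every day 3 library than in every control library, while the Cldn4 values of the groups overlap.

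Among secreted signals, chemokines and interleukins rose while some family members did not. Of 35 chemokine ligands, 20 rose and 2 fell (median log2 fold change 1.44). Ccl2, which draws monocytes, went from 4.77, 4.74 and 6.37 to 91.4, 89, 98 and 72.2 FPKM, and the neutrophil attractant Cxcl1 from 14.9 ± 1.79 to 126 ± 17 FPKM. Cxcl10, an interferon-induced T cell attractant, rose by 2.13, whereas the stromal chemokine Cxcl12 was not called (0.67, adjusted p = 0.0643, and called higher without day 3 replicate 4). Of 11 chemokine receptors 6 rose, among them Ccr1 (2.88) and Ccr2 (2.23), both receptors of monocytes. Ccr1 was highest in the day 3 library with the highest neutrophil marker sum, at 54.8 FPKM against 21.5 to 26.8 FPKM in the other 3.

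Of 21 interleukins and relatives of interleukin-6, 15 rose and 2 fell. Il33, an alarmin released by damaged barrier and stromal cells, stood at 0.78, 0.76 and 0.842 FPKM in control and 19.2, 15.4, 16.2 and 17.9 FPKM at day 3 (3.34, SE 0.23). The anti-inflammatory Il10 rose from 2.57 ± 0.818 to 42.6 ± 11.4 FPKM (3.60) and Lif from 15.3 ± 3.11 to 48.7 ± 9.57 FPKM (1.61). Il1b changed by only 0.72, from a control level that was already 49.4 ± 7.03 FPKM, and its call was lost after median centring. Among 39 cytokine receptors 29 rose and 1 fell. They included Csf1r, the receptor on which macrophages depend (3.29), Csf2rb, the shared chain of the granulocyte-macrophage factor receptor (2.65), and Osmr, the oncostatin M receptor (1.54).

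In the tumour necrosis factor (TNF) superfamily, 10 of 13 ligands and 15 of 20 receptors rose. Tnf itself went from 27.1 ± 4.85 to 88.1 ± 9.48 FPKM (1.67). Tnfsf14, the T cell costimulator LIGHT, changed by 3.24 and the receptor Tnfrsf12a, which binds the injury cytokine TWEAK, by 1.77. The death ligand Tnfsf10 was called lower (-0.61), a call lost after rescaling to TPM. In the epidermal growth factor (EGF) family Areg (1.77) and Hbegf (1.00) rose while Egf fell, and the mean summed FPKM of its 7 ligands was 269 in control and 243 at day 3. Of their 4 receptors only Egfr was called (0.47), and that call was lost after 2 of the 4 other scalings.

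Most MS4A, Fc receptor and Toll-like receptor genes rose. All 9 tested MS4A genes, membrane proteins of the CD20 family, were higher (median 2.76), from a summed 11.3 FPKM in control to 210 FPKM at day 3. Ms4a6c stood at 4.56, 5.71 and 4.04 FPKM in control and at 94.1, 70.4, 134 and 65.6 FPKM at day 3. Of 10 Fc receptor and related genes 8 rose and 1 fell. Fcrls (5.01) and the high-affinity antibody receptor Fcgr1 (3.99) led them, with the signalling chain Fcer1g at 3.15. Of 20 genes with a C-type lectin domain 12 rose and 2 fell (10 and 4 after median centring), Clec4n (Dectin-2, a receptor for fungal sugars) by 3.81.

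Of 10 Toll-like receptor genes 8 rose and 1 fell. Tlr2, which senses bacterial lipoproteins, reached 139, 119, 151 and 129 FPKM from 9.81, 13.6 and 11.4 FPKM. Of 20 genes of inflammasomes and lytic cell death 19 rose. Ripk3, the necroptosis kinase, changed by 3.15, Casp4 by 2.68 and Nlrp3 by 2.18. All 3 had no overlap between the groups, which held for 64.7% of all tested genes. These increases stand beside the 22 called macrophage entries, and how far they share a source was not tested.

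Antigen presentation and phagocyte genes rose too. Of 11 MHC class II genes 10 were higher, and their summed FPKM went from 1600 to 4810. H2-DMa, which helps to load peptides, changed by 2.87, more than the presenting chain H2-Aa (1.64). Of 20 class I genes 15 rose and none fell, with B2m, the common light chain, from 409 ± 37 to 1180 ± 240 FPKM and H2-K1 at 1.46. The NADPH oxidase of phagocytes rose (Cybb 2.23, Ncf4 2.76), while Nox4, the tubular form, fell from 25.8, 16.1 and 28.8 to 6.37, 10.3, 7.64 and 5.67 FPKM (-1.52, SE 0.24). Of 14 tested acute-phase genes 11 rose, among them complement C3 (4.06), Saa3 (3.62) and the fibrinogen beta chain Fgb (2.81). Saa3 varied widely, at 3.32, 27.5, 8.33 and 25.5 FPKM over the day 3 libraries.

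Guanylate-binding proteins and related GTPases, induced by interferon against intracellular microbes, rose in 13 of 14 tested genes. Gbp3 went from 2.54, 2.4 and 2.79 to 14.9, 17.9, 20.2 and 9.34 FPKM and Gbp2 from 12.8, 16.8 and 13.8 to 31.1, 57.7, 51.4 and 33.4 FPKM. The 250 bases before the start sites of both (RefSeq, GRCm38.p6) are shown because most members with a promoter in the RefSeq table share one word in them. That word, GAAANNGAAA on either strand, a core of the interferon response element, was in 7 of 8 such members and in 3.33% of 10369 tested genes with a promoter. Capitals mark it. Gbp3 lies at chr3:142559794-142560043 and Gbp2 at chr3:142620413-142620662, both on the plus strand.
Gbp3: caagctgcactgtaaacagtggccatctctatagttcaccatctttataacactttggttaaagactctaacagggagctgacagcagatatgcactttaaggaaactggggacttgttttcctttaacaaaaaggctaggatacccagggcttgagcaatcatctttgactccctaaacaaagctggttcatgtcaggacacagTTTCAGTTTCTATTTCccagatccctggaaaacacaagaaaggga
Gbp2: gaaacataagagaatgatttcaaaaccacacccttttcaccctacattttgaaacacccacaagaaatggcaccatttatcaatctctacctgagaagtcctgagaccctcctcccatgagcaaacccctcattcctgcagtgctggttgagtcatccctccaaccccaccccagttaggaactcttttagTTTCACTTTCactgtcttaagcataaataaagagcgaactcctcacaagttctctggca

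Genes of lysosomal proteases and of the immunoproteasome rose. Of 13 cathepsins 11 rose and 2 fell. Ctss, the protease of antigen-presenting cells, went from 48.6, 63.6 and 51.1 to 679, 564, 924 and 554 FPKM (3.60), Ctsk, a collagen-cleaving protease, changed by 2.41 and Ctsb by 1.66. Of 39 lysosomal hydrolases and membrane proteins 24 rose and 5 fell, with the macrophage protein Cd68 at 2.79 and Gpnmb at 2.37. The 23 subunits of the proton pump that acidifies lysosomes divided instead, with 4 higher and 9 lower, and their median of -0.15 turned to 0.21 after rescaling to TPM. The subunits that fell included Atp6v1b1 (-1.65) and Atp6v1g3 (-1.54), both known from acid-secreting intercalated cells. In the 20S proteasome 5 of 17 genes rose and 2 fell, and the median of 0.00 turned negative after median centring (-0.33). The 3 catalytic subunits of the immunoproteasome stood clear of this: Psmb8 went from 7.84, 9.99 and 6.64 to 40.7, 41.1, 46.6 and 41.4 FPKM, and Psmb10 changed by 1.99 and Psmb9 by 1.76.

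The unfolded protein response, by which cells raise folding capacity in the endoplasmic reticulum, rose in 24 of 28 genes with none lower (median 0.96). Chac1, a glutathione-degrading target of the stress factor ATF4, rose from 1.05, 0.956 and 1.71 to 13.3, 17, 14.1 and 32.2 FPKM (3.10, SE 0.33), and the pseudokinase Trib3 by 2.12. The cochaperone Dnajb9 rose from 31 ± 2.76 to 134 ± 19.1 FPKM (2.06). Smaller were the changes of the chaperone Hspa5 (0.61, adjusted p = 0.0215), which lost its call after median centring, and of the secreted Manf (0.69), which lost it likewise. The death-linked factor Ddit3 was not called (0.25, and 0.38 with a call without control replicate 2), and its direction turned after median centring (-0.09).

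A stress element, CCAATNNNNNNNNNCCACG, was found in the 250 bases before the start of 8 of the 24 unfolded protein response genes with a RefSeq promoter, and in 0.145% of all 10369 such genes. The promoters of the 2 carriers with the largest rise, the ubiquitin ligase gene Syvn1 (chr19:6046326-6046575) and the disulfide isomerase gene Pdia6 (chr12:17266339-17266588), both on the plus strand of GRCm38.p6, show it, with its last base 26 and 80 bases before the start. Capitals mark the element. Chac1, Trib3 and Dnajb9, with larger rises, were not among the carriers.
Syvn1: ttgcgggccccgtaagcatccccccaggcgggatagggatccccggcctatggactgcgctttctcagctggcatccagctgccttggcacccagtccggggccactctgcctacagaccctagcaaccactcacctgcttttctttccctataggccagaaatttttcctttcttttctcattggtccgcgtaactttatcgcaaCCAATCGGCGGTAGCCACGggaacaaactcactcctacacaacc
Pdia6: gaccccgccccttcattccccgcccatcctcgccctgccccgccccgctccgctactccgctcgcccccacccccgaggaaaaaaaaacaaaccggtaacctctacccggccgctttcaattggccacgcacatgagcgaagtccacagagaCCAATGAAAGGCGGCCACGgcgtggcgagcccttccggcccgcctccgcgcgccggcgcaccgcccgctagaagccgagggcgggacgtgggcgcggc

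Genes that supply protein synthesis rose in the nucleus and cytosol and fell in mitochondria. Of 48 ribosome biogenesis genes 40 rose and 2 fell (median 0.88), with the growth regulator Myc from 7.74, 10.2 and 7.51 to 34.6, 42.1, 33.5 and 47.7 FPKM and the assembly factor Rrs1 at 1.18. Of 20 cytosolic tRNA synthetases 16 rose, Rars by 1.36 and Cars by 1.15. The 84 cytosolic ribosomal protein genes gave 50 higher and 2 lower (median 0.38, Rpl12 0.85), but 7 and 9 once centred on the median gene and 78 and 1 as TPM. The 78 mitochondrial ribosomal protein genes gave 65 lower and none higher (median -0.70), and 40 lower and 6 higher after rescaling to TPM. Mrpl12 fell the furthest of them, from 145, 158 and 121 to 35.6, 40.7, 27.9 and 45.7 FPKM. Of 43 splicing regulators of the SR and hnRNP families 36 rose and 1 fell, Srsf2 by 1.81 and Ptbp1 by 1.02.

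**Figure D4:**
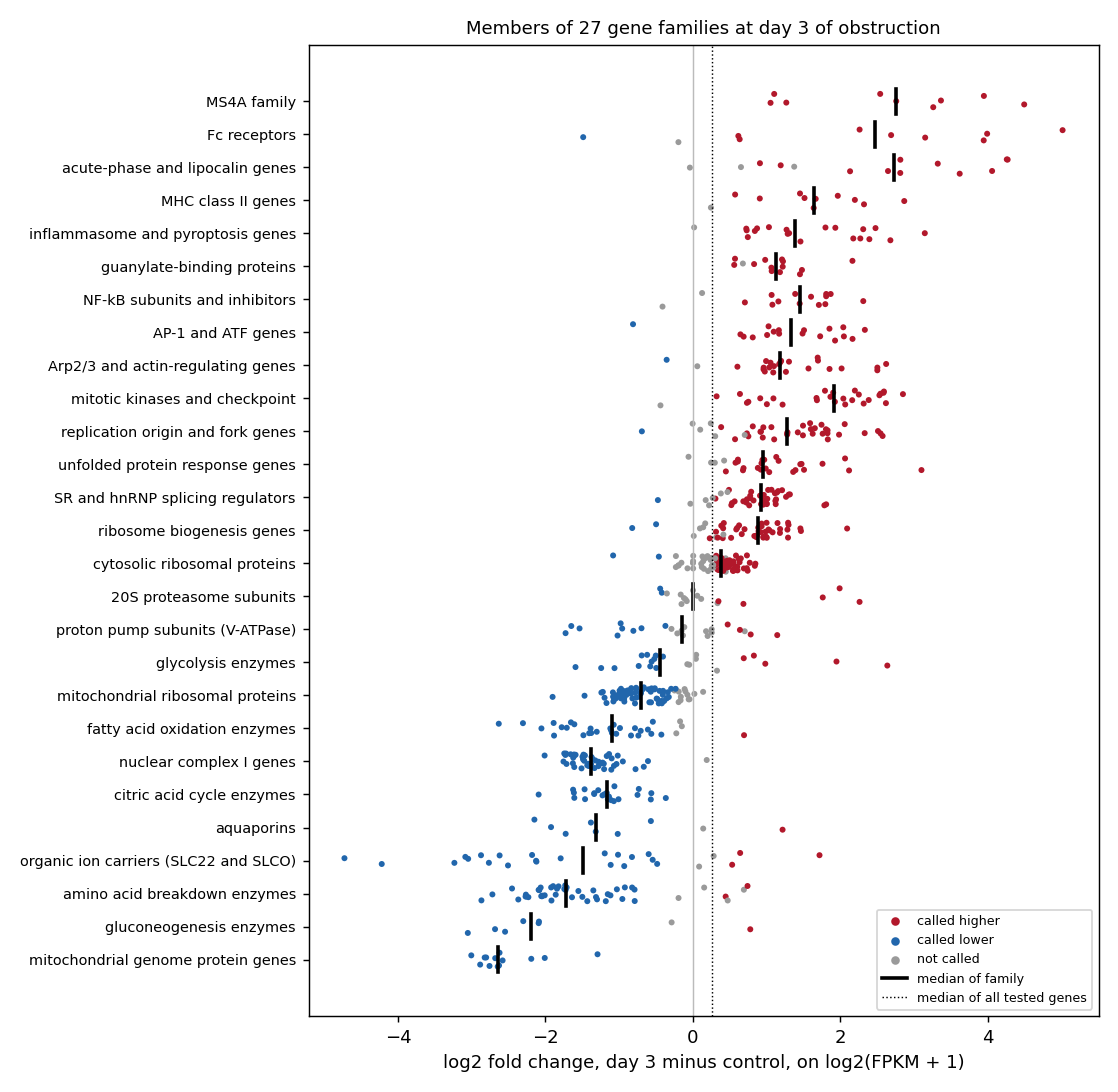
Log2 fold change at day 3 against control (x axis, on log2(FPKM + 1)) for every tested member of 27 gene families; points are genes, red called higher, blue called lower, grey not called. Vertical ticks are family medians, from 2.76 in the MS4A family to -2.65 in the mitochondrial genome (-0.74 after quantile normalization), and the dotted line is the median of all tested genes, 0.26.

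The cell division programme rose from low levels. Of 28 mitotic kinases and checkpoint genes 27 rose (median 1.91), and their summed FPKM went from 40.4 to 186. Ube2c, which marks proteins for destruction in mitosis, was at 1.28, 1.86 and 0.791 FPKM in control and 19.9, 16.1, 10.5 and 16.2 FPKM at day 3, and the proliferation marker Mki67 changed by 2.32. Ccnb2 (3.41), Ccnf (3.11) and Cdk1 (1.91) were among 17 of 21 cyclins, their kinases and inhibitors that rose. Replicate 3, which had the highest neutrophil marker sum, was lowest of the day 3 libraries in Ube2c, Ccnb2 and Cdk1. The G1 cyclin Ccnd1 fell, from 51.1, 54.9 and 45.6 to 28.8, 29.4, 27.3 and 24 FPKM (-0.86, SE 0.13), as did the inhibitor Cdkn1c, a podocyte gene (-1.91). The inhibitor Cdkn1a rose by 1.77. Of 32 kinesins 23 rose and 4 fell, the mitotic Kif20a by 2.57. Of 20 centromere proteins 16 rose and 2 fell, with Cenpa at 1.86.

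Of 39 genes of replication origins and forks 33 rose and 1 fell (median 1.28). The helicase subunit Mcm3 stood at 1.78, 2.32 and 2.03 FPKM in control and 19.2, 18, 14.3 and 17.1 FPKM at day 3. E2F factors, which drive this programme, rose in 6 of 8 members, among them E2f1 (1.49) and E2f2 (1.60), as did Foxm1 (1.87), which drives mitotic genes. The E2F words TTTCCCGC, TTTGGCGC or TTTCGCGC were in 10 of 31 replication genes with a RefSeq promoter and in 3.21% of all. They are shown in capitals for the 2 carriers with the largest rise, the methylation-maintenance factor Uhrf1 (2.51, chr17:56304063-56304312) and the helicase subunit Mcm5 (2.33, chr8:75109259-75109508), both on the plus strand of GRCm38.p6.
Uhrf1: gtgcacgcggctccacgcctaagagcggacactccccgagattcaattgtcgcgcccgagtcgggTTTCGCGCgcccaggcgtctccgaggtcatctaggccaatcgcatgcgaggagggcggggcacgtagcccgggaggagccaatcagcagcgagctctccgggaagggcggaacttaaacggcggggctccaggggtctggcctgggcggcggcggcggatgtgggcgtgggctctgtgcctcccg
Mcm5: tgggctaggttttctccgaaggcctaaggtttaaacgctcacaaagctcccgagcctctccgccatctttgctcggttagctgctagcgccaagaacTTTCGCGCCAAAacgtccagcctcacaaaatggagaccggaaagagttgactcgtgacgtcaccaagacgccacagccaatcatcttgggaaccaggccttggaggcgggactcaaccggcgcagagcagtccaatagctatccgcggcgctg

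Other motifs were found in smaller shares of their lists. TTTGAA or TTCGAA together with CCAAT was in 7 of 22 mitotic genes and 5.71% of all genes with a promoter. TGATGNAA, read by ATF4, was in 3 of 12 tRNA synthetase genes and 2.5% of all, GGGANTTTCC of NF-kB in 2 of 11 NF-kB genes and 0.511% of all, and the NRF1 palindrome in 2 of 40 complex I genes and 1.74% of all. These 7 were kept from a scan of 13 motifs over 16 families, so the shares are descriptions. A match in these windows is not a bound site.

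Of 25 p53 target genes 17 rose and 5 fell. Mdm2, the ubiquitin ligase that restrains p53, went from 6.83, 5.78 and 7.53 to 56, 52.5, 84 and 47.6 FPKM (2.96). The stress cytokine Gdf15, already at 75.9 ± 23.9 FPKM in control, was not called (0.32, and 0.56 with a call without control replicate 2), and its direction turned after median centring (-0.02).

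Actin genes rose almost as a whole list. Of 24 genes of actin branching and related structural genes 22 rose and 1 fell (median 1.18), including the Arp2/3 subunit Arpc1b (2.50) and the intermediate filament Vim, which went from 18.5, 20.8 and 17.6 to 113, 117, 119 and 138 FPKM. Of 15 tubulins 8 rose, Tubb6 by 2.49. Of 13 keratins 5 rose and 1 fell, with Krt20 at 1.94, and the family median of 0.18 turned to -0.16 after median centring. Krt8, a keratin of simple epithelia, was at 221, 435 and 216 FPKM in control and 455, 528, 393 and 751 FPKM at day 3, with overlap and a call (0.90) that was lost in 1 of the 4 other scalings. Of 10 annexins 7 rose, Anxa3 by 1.93 and Anxa1 by 1.59. Of 13 S100 calcium-binding proteins 5 rose and 2 fell, with a median of 0.25 that turned to -0.09 after median centring. S100a4 rose by 2.63 while S100g, the calbindin of the distal tubule, fell from 1210, 1270 and 1010 to 115, 137, 69.3 and 144 FPKM (-3.35).

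Junction genes moved in both directions. Of 14 claudins, the seal of tight junctions, 5 rose and 3 fell, and their median of 0.05 turned to -0.29 after median centring. Cldn4 stood at 326, 736 and 331 FPKM in control and 342, 420, 314 and 625 FPKM at day 3, with overlapping groups. The proximal tubule and loop claudin Cldn10 fell from 76.2 ± 7.91 to 16.6 ± 4.76 FPKM (-2.16). Cdh1, epithelial cadherin, was not called (-0.05, with a 95% interval of -0.42 to 0.32, and 0.38 after rescaling to TPM). The kidney cadherin Cdh16 fell (-0.90, a call lost after rescaling to TPM), and the mesenchymal Cdh11 rose from 0.29 ± 0.0172 to 5.04 ± 1.52 FPKM (2.19).

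Genes of basement membrane chains moved in both directions. Of the 6 collagen IV chains 2 rose and 2 fell (median 0.05, and -0.29 after median centring). Col4a1 (33 ± 5.35 to 124 ± 19.6 FPKM, 1.88) and Col4a2 (1.99), which form the common network, rose. Col4a3, of the mature glomerular and tubular network, fell from 17.5, 14 and 20.7 to 6.24, 7.96, 5.16 and 4.93 FPKM (-1.38), and so did Col4a4 (-1.25). Of 10 laminin chains 4 rose and 1 fell, but 3 rose and 4 fell after median centring. Lamc1, of most basement membranes, rose by 1.29. Of 17 matricellular proteins, which tune cell contact with matrix, 14 rose and none fell. Spp1 (osteopontin) alone went from 557, 424 and 588 to 3170, 3420, 2940 and 2930 FPKM. Tgfbi changed by 4.02 and Tnc, tenascin C, by 3.15.

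Of 41 metalloproteinases and their inhibitors 32 rose and 1 fell. Mmp14, a collagenase on the cell surface, changed by 2.99. Mmp7, a Wnt-linked protease of injured tubule, was listed at 0, 0.0515 and 0 FPKM in control and stood at 3.28, 3.02, 13.1 and 4.87 FPKM at day 3. The exception was Timp3, the inhibitor bound to matrix, which fell from 196, 146 and 188 to 84, 97, 66.1 and 66.9 FPKM (-1.17, SE 0.18), opposite to Timp1 (5.68).

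Mitochondrial metabolism fell in nearly every tested gene. Of 46 nuclear complex I genes 45 fell (median -1.38), and 42 after rescaling to TPM. Ndufb4 went from 157, 183 and 140 to 44.2, 48.6, 40.9 and 54.5 FPKM. Of 41 nuclear genes of complexes III to V 38 fell, Cox7a1 by the most (-2.55). All 23 genes of the citric acid cycle fell (median -1.17, 20 after rescaling to TPM). The master regulator of mitochondria Ppargc1a changed by only -0.43, with overlapping groups. Its call was lost after rescaling to TPM and without control replicate 1, control replicate 3 or day 3 replicate 3 (-0.35, -0.33 and -0.33). Of 32 fatty acid oxidation enzymes 28 fell and 1 rose. The peroxisomal Ehhadh changed by -2.30, and the gatekeeper of entry into mitochondria, Cpt1a, by -0.71, which lost its call after rescaling to TPM.

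Most enzymes of amino acid breakdown fell. Of 47 enzymes of amino acid breakdown 41 fell and 2 rose (median -1.73). Among them were the tryptophan pathway enzymes Acmsd (-2.87) and Haao (-2.72). Hpd also fell (-2.05), but its day 3 values were 6.98, 0.727, 0.184 and 0.539 FPKM, highest in the library with liver transcripts. Of 21 genes of arginine, creatine and polyamine metabolism 8 rose and 7 fell (median -0.04, and 0.39 after rescaling to TPM). The synthesis gene Ass1 fell from 689, 841 and 630 to 100, 143, 75.4 and 120 FPKM and the creatine gene Gatm by 1.28 on the log2 scale, while both arginases rose (Arg1 4.71, Arg2 1.88).

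Of 8 gluconeogenesis enzymes 6 fell and 1 rose (median -2.20), with G6pc, the last step of glucose release, from 117, 95.5 and 121 to 10.6, 22.3, 7.54 and 13.2 FPKM, Fbp1 at -2.68 and Pck1 at -2.55. Of 22 glycolysis genes 5 rose and 12 fell (median -0.45), but 7 rose and 3 fell after rescaling to TPM, and without control replicate 2 only 7 fell. Hexokinases Hk2 (1.95) and Hk3 (2.64), which is a leukocyte form, rose under all 5 scalings. Pkm did not pass (0.33), with 88.8, 119 and 90.9 FPKM in control and 125, 117, 106 and 153 FPKM at day 3, and turned to -0.01 after median centring.

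Lipid, drug and metal handling changed by gene. Apoe, the lipid carrier of macrophages and other cells, rose from 46.5, 49.2 and 41.2 to 517, 500, 858 and 524 FPKM (3.65), with the lipid sensor Trem2 (3.46) and the cholesterol exporter Abca1 (2.68). Of 36 cytochrome P450 genes 7 rose and 19 fell. Cyp2e1 fell from 367 ± 65.2 to 72 ± 18.1 FPKM (-2.36), whereas Cyp1b1 rose by 2.47. Cyp2d9, a male-predominant form, was at 5.38 FPKM in the library with liver transcripts and 0.358 to 0.801 FPKM in the other day 3 libraries. Without that library its fall is -4.42. The vitamin D-degrading Cyp24a1 fell by 1.49 on the log2 scale. Aldh1a2, which makes retinoic acid, rose from 1.39, 1.77 and 1.14 to 39.4, 21.2, 32.3 and 20.8 FPKM (3.56).

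Of 26 antioxidant genes 5 rose and 12 fell (median -0.34, and 0.09 after rescaling to TPM). Gpx3, the plasma glutathione peroxidase made in the proximal tubule, fell from 4550, 4610 and 3660 to 440, 689, 425 and 653 FPKM (-2.98), and catalase (Cat) by 1.54 on the log2 scale, while the heme-degrading Hmox1 rose by 1.50. In metal handling 18 of 27 genes rose and 4 fell. Trf, transferrin, reached 102, 60, 101 and 74.6 FPKM from 6.4, 7.97 and 5.75 FPKM (3.45), and the iron exporter Slc40a1 changed by 1.06.

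Tubular transport genes fell with the proximal tubule list, all 20 of whose members were lower. Of 284 solute carriers 86 rose and 118 fell (median -0.21, and 0.16 after rescaling to TPM). Of 26 organic ion carriers 21 fell and 3 rose, of 9 sodium-glucose type carriers 8 fell, and of 40 mitochondrial carriers 21 fell and 5 rose (median -0.41, and 0.00 after rescaling to TPM). Of 35 amino acid carriers 16 rose and 9 fell (12 and 13 after median centring). Slc22a6, the carrier used to clear para-aminohippurate, went from 140, 164 and 134 to 13.8, 29.9, 12.7 and 24.3 FPKM (-2.87), and the glucose carrier Slc5a2 from 87.4 ± 8.28 to 22.6 ± 8.23 FPKM (-1.97). Slc38a2, a neutral amino acid carrier induced when amino acids are short, rose the most, from 31.3, 25.3 and 36.1 to 223, 229, 241 and 201 FPKM (2.83, SE 0.12).

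Of 9 aquaporins 7 fell and 1 rose. Aqp2, the vasopressin-regulated channel of the collecting duct, was at 306, 516 and 302 FPKM in control and 88.5, 114, 47.6 and 167 FPKM at day 3 (-1.92), Aqp3 changed by -2.15 and Aqp1 by -1.73. Of 29 genes for salt and calcium handling in the distal nephron 23 fell and 1 rose. Slc12a1, the loop diuretic target, was at 279, 130 and 317 FPKM in control and 29.1, 46.3, 29 and 27.8 FPKM at day 3 (-2.77), whereas Slc12a3, the thiazide target, did not pass (-0.76, adjusted p = 0.054). Slc12a3 was called lower without control replicate 2 (-1.0) or day 3 replicate 1 (-0.90) or 4 (-0.89). Uromodulin (Umod) fell by 1.09 and Calb1 by 3.49 on the log2 scale. Of 23 potassium channels 9 rose and 6 fell (median -0.02, and 0.34 after rescaling to TPM). Kcnj1 fell (-2.19) and Kcnn4, a calcium-activated channel of leukocytes and fibroblasts, rose (2.65). The endocytic receptor genes Lrp2 (-2.07) and Cubn (-1.67) fell. Ren1, renin, went from 78.2 ± 3.78 to 23.1 ± 4.44 FPKM, while the prostaglandin synthase Ptgs2 (1.95), the prostaglandin-degrading Hpgd (2.12) and the leukotriene cofactor Alox5ap (3.11) rose.

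Immediate early and immune transcription factors rose and nephron factors fell. Of 18 AP-1 and ATF genes 17 rose and 1 fell, Batf by 2.33 and Fosl1 by 2.17. Of 14 Kruppel-like factors 11 rose and 3 fell: Klf4 stood at 19.5, 18.8 and 18.3 FPKM in control and 166, 166, 165 and 151 FPKM at day 3 (3.03), and Klf15, a metabolic regulator, fell from 13.5, 14.3 and 13.2 to 2.57, 2.53, 1.31 and 2.08 FPKM (-2.25). Of 15 NF-kB genes 13 rose and none fell, Bcl3 by 2.31 and Nfkb2 by 1.87. Of 16 interferon regulatory factors and STATs 13 rose and 1 fell, with Irf8, a myeloid factor, at 1.91, Irf7 at 1.76 and Stat3 at 1.52. Spi1, the macrophage factor PU.1, led 15 of 21 ETS genes that rose (2.46).

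Among 31 tested nephron factors 18 fell and 5 rose. Hnf4a, which maintains proximal tubule identity, fell from 60.3, 70.2 and 59.5 to 16.6, 23.4, 11.6 and 18.3 FPKM (-1.83). Sox9 (3.12) and Sox4 (1.85), of injured and regenerating tubule, and Runx1 (2.03) rose, while Tfcp2l1 of the collecting duct was not called (-0.43). Among 36 nuclear receptors 10 rose and 15 fell (median -0.06, and 0.29 after rescaling to TPM), with Nr4a2, an immediate early gene, at 2.02 and the vitamin D receptor Vdr at -1.12. Of 16 lysine demethylases 13 rose and none fell, Kdm6b by 1.58. The mitochondrial deacetylase Sirt3 fell from 9.99, 11.3 and 9.59 to 2.3, 2.38, 1.88 and 2.46 FPKM (-1.79, SE 0.10).

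Some genes changed in their transcripts more than in their total. Of 23910 transcripts tested 9859 (41.2%) were called at day 3, and in 130 of 5762 genes with at least 2 tested transcripts (2.26%) they were called in opposite directions. Transcript values are estimates from reads that transcripts share, and how far their assignment moved these pairs was not tested. Several varied widely within control. Actr3-201 was at 57.5, 52.2 and 0.811 FPKM over the control libraries and Myl12a-201 at 25.4, 202 and 118 FPKM, and Agpat3-204 at 33.7, 1.98 and 33 FPKM. Both Serpinb6a transcripts spread likewise. In Gyg, the primer protein of glycogen, the groups did not overlap in either transcript. Gyg-203 was at 18.7, 18.5 and 17.1 FPKM in control and 1.86, 4.08, 1.39 and 3.26 FPKM at day 3. Gyg-204 was listed at 0 in all 3 control libraries and stood at 16.8, 14.6, 15.9 and 14.9 FPKM at day 3, and the gene total did not change detectably (0.10). Sys1, a Golgi membrane protein gene, has such a pair, both with a coding sequence of 468 bases. Sys1-201 fell from 26.8, 15.9 and 15.7 to 4.28, 6.75, 0.302 and 0.171 FPKM. Sys1-202 rose from 0.174, 1.12 and 0.334 to 5.79, 5.37, 8.81 and 13.3 FPKM. In day 3 replicate 2 Sys1-201 was still the higher of them.

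A further 2 pairs were singled out after their values were seen. Ptpro, a receptor phosphatase, kept its gene total (-0.03), but Ptpro-201, the long form with 27 exons and 3678 coding bases known from podocytes, went from 3.13, 4.92 and 4.42 FPKM to a listed 0 in all 4 day 3 libraries. Ptpro-207, with 15 exons and 1131 coding bases from a start inside the gene, went from 0, 0 and 0.632 to 11, 3.44, 6.99 and 3.48 FPKM (2.49, adjusted p = 0.000825). Short forms of this phosphatase are known from leukocytes. Plod2 encodes the lysyl hydroxylase whose long form modifies collagen telopeptides for cross-linking. Plod2-203, which has 1 exon and 63 coding bases more than Plod2-201, went from 6.63, 1.14 and 1.32 to 14.5, 15.8, 9.49 and 12.9 FPKM (2.06, adjusted p = 0.00271). Plod2-201 fell from 2.56, 7.04 and 8.3 to 0.761, 0.612, 1.08 and 0.251 FPKM.

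**Figure D5:**
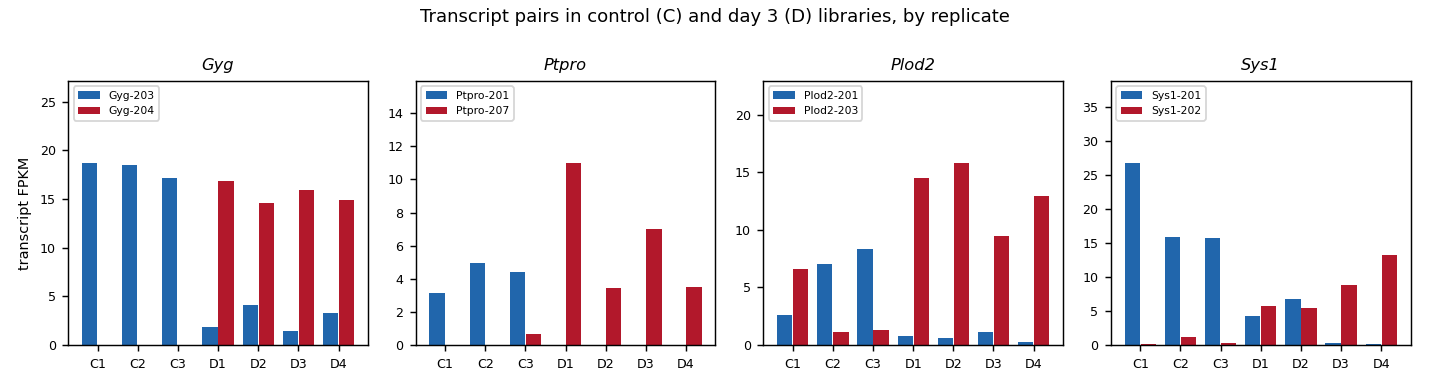
Transcript FPKM (linear y axes that start at 0) of 4 genes with a pair of transcripts called in opposite directions, in the control (C) and day 3 (D) libraries; blue bars are the transcript that fell and red bars the one that rose. Gyg-204 is listed at 0 in all 3 control libraries and Ptpro-201 in all 4 day 3 libraries.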

How the data were processed

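FPKM values per gene and per transcript were deposited by the authors for all 11 libraries. Per the submitters' processing notes the tools were HISAT2, StringTie and cutadapt with build GRCm38, without versions. Read depth is not given, so counting error is unknown. Here log2(FPKM + 1) was fitted with limma 3.58.1 (R 4.3.3, eBayes with a mean-variance trend) over control, day 3 and day 7 together, for genes averaging 0.5 FPKM or more, and p-values were Benjamini-Hochberg adjusted over all 13428 genes, with a threshold of 0.05. Fold changes on this scale understate the change of low genes. The fit was tested on simulated data. Other settings were pseudocounts of 0.1 and 5, no minimum and a minimum of 2 FPKM, 4 other scalings, other fits and each library left out. Genes and lists were chosen with earlier results of these data known. The named genes were, by rule, the largest changes among genes reaching 5 FPKM (15 in each direction) and up to 3 members per family, with key members, while Cd4, Cd79b, Col4a4, Gzma, Pdgfra, Mcm5, Syvn1, Pdia6, Ptpro and Plod2 were named outside it after their values were seen. The liver genes were named because they stood apart in day 3 replicate 1. Promoters were taken from RefSeq and transcript structures from GENCODE. Tables were handled in Python 3.11.15 with pandas 2.3.3, numpy 2.4.6 and matplotlib 3.10.9. A few genes are not reported here.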

Additional observations from a re-analysis of the deposited data

Results flagged for a closer look

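Day 7 differed from day 3 in 63 of the 188 named genes in the limma test of that difference (adjusted over all genes). Over all 13428 tested genes the share was 15.7% (2114 genes), and many of the named genes were chosen for their day 3 changes. Both times are set against the same control libraries. The values here are day 7 minus day 3 on the log2 scale. Most of these 63 genes moved further from control at day 7. Among genes higher at day 3, values rose further for Ctsk at 1.87, Cdh11 at 1.61, Mmp14 at 1.44, Gpnmb at 1.34 and Tnc at 1.25, and for Arg1 (1.69), Ptgs2 (1.22), Cyp1b1 (1.12), Nr4a2 (0.99), Krt20 (0.93), Anxa1 (0.89), Ccl2 (0.85), Cxcl1 (0.70), Sox4 (0.69), Klf4 (0.62), Irf7 (0.48), Osmr (0.45) and Runx1 (0.35).

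Among genes lower at day 3, values fell further, with Fbp1 at -1.69, G6pc at -1.66, Slc22a6 at -1.58, Slc5a2 at -1.57, Lrp2 at -1.48, Cyp2e1 at -1.47, Ass1 at -1.38 and Acmsd at -1.30. Ehhadh, Haao and Pck1 stood at -1.28, Hnf4a at -1.25, Aqp1 at -1.16, Gpx3 at -1.04 and Cubn at -1.01. Smaller falls were those of Cldn10 (-0.87), Gatm (-0.82), Cat (-0.59), Cox7a1 and Klf15 (both -0.58), Ndufb4 (-0.53) and Mrpl12 (-0.50). In the distal nephron Aqp2 stood at -1.59 and Umod at -0.60, and Cdh1, not called at day 3, at -0.64.

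Other genes were nearer to control at day 7. Fgg (-2.25) and Fgb (-1.99) came down most among them. Named cell division genes stood lower than at day 3, Ccnb2 at -1.10, E2f2 at -0.93, Ube2c at -0.91, Uhrf1 at -0.76, Foxm1 at -0.70, Mcm3 at -0.68 and Kif20a at -0.63. So did the stress genes Chac1 (-1.03), Trib3 (-0.82) and Cars (-0.50), and Kcnn4 (-0.98), Batf (-0.86), Tlr2 (-0.62), Tgfbi (-0.56), Bcl3 (-0.51), Psmb10 (-0.42) and Psmb9 (-0.41). Cdkn1c, lower at day 3, was higher at day 7 (0.85).

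In 19 named genes 1 day 3 library stood apart from the other 3 by Dixon's test, which chance flags in about 1 in 20 groups. The test sets the gap against the range of the group, so a flagged library can differ little in FPKM. Replicate 1 was far above in the liver genes Alb (261 FPKM), Mup20 (69.8 FPKM), Fabp1 (52.1 FPKM), Apoa1 (47.5 FPKM) and Ahsg (31.2 FPKM). These 5 were named because they stood apart in replicate 1, so their flags follow from that choice and cannot be set against the chance rate. Replicate 3 was apart in 9 genes, with Apoe at 858 FPKM, Srsf2 at 159 FPKM, Kdm6b at 98.7 FPKM, Psmb8 at 46.6 FPKM, Rars at 44.6 FPKM, Cenpa at 11.2 FPKM, Atp6v1b1 at 8.55 FPKM, Ppargc1a at 6.55 FPKM and Nccrp1 at 1.42 FPKM. Replicate 2 was high in Slc12a1 (46.3 FPKM) and Lrp2 (21.6 FPKM). Replicate 4 was apart in Klf4 (151 FPKM), Tubb6 (97.6 FPKM) and Osmr (2.6 FPKM).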

How the results depend on the processing

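Over 18 other settings, 164 of the 173 named genes called at day 3 kept their call and direction, 9 lost the call under at least 1 setting, and none reversed. Many of these genes were named for their large changes in these data, so their share does not stand for all genes. Of all 8773 genes called, 5425 were called in one direction under all 5 scalings. Median centring gave 3743 genes higher and 4701 lower, quantile normalization 4358 lower, and rescaling to TPM 1700 lower and 5727 called with a change of at least 2-fold. A pseudocount of 5 left 1713 genes at 2-fold, and a minimum of 2 FPKM left 58 genes with opposite transcripts. Leaving out 1 library at a time gave 7957 to 8617 called genes, 5393 to 5893 higher, 2564 to 2789 lower, 3303 to 3601 at 2-fold and 90 to 125 with opposite transcripts. In family counts, 98 of 297 tested Zfp zinc finger genes were higher and 43 lower, a split that rested on the scaling. It became 51 and 115 by median centring, 53 and 107 by quantile normalization, and 140 and 15 as TPM. An equal total without mitochondrial genes left 96 and 39. The lower count was 26 without control replicate 1 and 25 without control replicate 3.

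Uncalled genes changed sign. Median centring gave Ddit3 -0.09, Gdf15 -0.02 and Pkm -0.01. Rescaling to TPM gave Cdh1 0.38, Cldn4 0.36 and S100a8 0.22, and a pseudocount of 5 gave S100a8 0.02. With 1 library left out at a time, Cdh1 ran from -0.15 to 0.09, Cldn4 from -0.27 to 0.32, S100a8 from -0.94 to 0.29, Alb from -0.85 to 1.61 and Fabp1 from -0.22 to 1.63. The cause was not tested.

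Deviations from the group means correlated at r = 0.048, -0.138 and 0.231 between same-numbered control and day 3 libraries. Differently numbered ones ran from -0.467 to 0.523. With so few libraries, these values cannot show whether the numbers pair them. With the replicate number as a block, 8880 genes were called, 6008 higher and 2872 lower. Depth is unknown, which leaves the error of low values unmeasured.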
